A study of Mus musculus with 2 samples.

Results

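The genes described here encode the proteins of the cytosolic ribosome. They were picked by symbol: a name of the form Rpl or Rps with a number and an optional further letter or digit, plus Rplp0, Rplp1, Rplp2 and Rpsa, without symbols marked -ps and without the Rps6k kinases. This takes in 83 of the 31053 genes in the files. Of the 83, 51 are named for the large and 32 for the small ribosomal subunit, and 6 are paralogs of another member (Rpl3l, Rpl7l1, Rpl10l, Rpl22l1, Rpl39l and Rps27l).

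The study sequenced RNA of single nuclei from entorhinal cortex in 2 libraries. Each library is a pool of 5 male APP/PS1 mice, a transgenic line that deposits amyloid in the brain, and all mice were 18 months old. The mice of 1 library had taken OLE, which the labels call C18:1-Leu (the amino acid leucine joined to oleic acid), at 25 mg/kg/day in alkaline drinking water from 15 months of age. Those of the other had taken the DMSO vehicle in the same way. No wild-type or younger mice were sequenced, and mice within a pool cannot be told apart.

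The ribosome joins amino acids into proteins, and each of its subunits is ribosomal RNA held by proteins such as these. Their messenger RNAs work in the cytoplasm and are among the most abundant of most cells, so a nucleus holds mainly newly made copies on their way out. Many of them begin with a run of pyrimidines, the 5′ terminal oligopyrimidine (TOP) motif, through which the kinase complex mTORC1 controls their translation, and several carry small nucleolar RNAs (snoRNAs) in their introns, which guide changes to ribosomal RNA.

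A unique molecular identifier (UMI) stands for 1 captured RNA molecule, and a barcode for 1 droplet, taken as a nucleus. The vehicle library held 70845739 UMIs in 6745 nuclei and the OLE library 69485537 UMIs in 6173 nuclei. Vehicle nuclei had a median of 3989 UMIs, OLE nuclei one of 6392. The libraries share 14 barcodes. Levels are member UMIs per 1000 UMIs, or UMIs per 1000000 UMIs for single genes, and ratios are log2 of OLE over vehicle. Values in brackets after a level or ratio are 95% intervals, exact Poisson for levels and exact binomial (Clopper-Pearson) for ratios and shares. They cover counting error only. Each condition is a single library without replicates, so nothing was tested, and treatment, library preparation and differences between mice cannot be told apart.

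Ribosomal protein UMIs took a larger part of the OLE than of the vehicle library. Over all barcodes the vehicle library had 88813 member UMIs, 1.25 per 1000 (1.25 to 1.26), and the OLE library 121192, 1.74 per 1000 (1.73 to 1.75). The ratio was 0.48 (0.46 to 0.49). The median nucleus held 9 member UMIs in the vehicle and 15 in the OLE library, and 43 vehicle and 10 OLE nuclei held none. Mitochondrially encoded genes, often read as a sign of RNA quality, made up 0.659% of vehicle and 0.678% of OLE UMIs.

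To ask whether the difference lies in particular cells, nuclei were grouped by clustering without the members and named from marker genes. Names ending in -like rest on markers alone. The 27 clusters gave 23 named ones, 13 of them glutamatergic-like, and 4 unnamed. Classes differed in how far their markers set them apart. GABAergic markers reached 9.84 per 1000 UMIs in vehicle GABAergic-like nuclei and 0.131 per 1000 in vehicle glutamatergic-like nuclei, but 5.39 per 1000 in vehicle and 4.98 per 1000 in OLE OPC-like nuclei, mostly Nxph1. The summed glutamatergic markers had 2.09 per 1000 in vehicle and 2.23 per 1000 in OLE glutamatergic-like nuclei, 0.439 and 0.461 in GABAergic-like nuclei, but 2.05 and 1.99 in astrocyte-like nuclei, mostly Rorb, 1.91 and 1.81 in leptomeningeal-like nuclei, mostly Foxp2, and 2.09 and 2.54 in the unnamed cluster 2. The member ratio was above 0 in all 27 clusters of this clustering, with the interval above 0 in each. These clusters share the same 2 libraries, so they are not separate observations of the treatment.

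Glutamatergic-like nuclei, the excitatory neurons of the cortex by their markers, held most of the UMIs of the libraries and had the lowest member level of the named classes. The level was 0.774 per 1000 (0.766 to 0.783) in 1826 vehicle nuclei and 1.11 per 1000 (1.10 to 1.12) in 1814 OLE nuclei, a ratio of 0.51 (0.49 to 0.53). Across the 13 glutamatergic-like clusters the ratio ran from 0.42 to 0.80. Their levels ran from 0.637 to 0.894 per 1000 in vehicle and from 0.858 to 1.24 per 1000 in OLE nuclei, so the ranges overlap only at the upper vehicle end. Their median depth was 20845 UMIs for vehicle and 19225 for OLE. Markers of another class also differed in these nuclei: all 11 GABAergic markers were seen, with a sum of 0.131 per 1000 UMIs in vehicle and 0.215 per 1000 in OLE (ratio 0.71), the most abundant being Adarb2 at 36.6 and 93.6 per 1000000. Their part in the member ratio was not tested.

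GABAergic-like nuclei, inhibitory neurons by their markers, had levels close to the glutamatergic-like ones: 0.897 per 1000 (0.876 to 0.920) in 340 vehicle nuclei and 1.24 per 1000 (1.21 to 1.26) in 354 OLE nuclei. The ratio was 0.46 (0.41 to 0.51). Thinning every nucleus to 1000 UMIs, by 1 random draw that leaves few member UMIs, gave 1.11 and 1.31 per 1000, a ratio of 0.24. The means of each nucleus' own share were 1.01 per 1000 in vehicle and 1.33 per 1000 in OLE. The class has 2 clusters, led by Nxph1 and Sst with a ratio of 0.51, and by Adarb2 and Vip with a ratio of 0.36.

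Glia-like nuclei had higher member levels than neuron-like nuclei and fewer UMIs per nucleus, and within a range of depth the order did not hold for all of them. At 5000 to under 10000 UMIs, a range in which depth can still differ between classes, OPC-like nuclei had 1.19 per 1000 in vehicle and 1.44 in OLE, under the 1.25 and 1.59 of glutamatergic-like and the 1.45 and 1.58 of GABAergic-like nuclei, and vehicle oligodendrocyte-like nuclei had 1.46. In oligodendrocyte-like nuclei the level was 1.76 per 1000 (1.70 to 1.82) in 591 vehicle nuclei and 2.25 per 1000 (2.18 to 2.32) in 530 OLE nuclei, with a ratio of 0.36 (0.29 to 0.42). All 8 leptomeningeal markers were seen there, at 0.674 per 1000 in vehicle and 1.01 per 1000 in OLE, mostly Ptgds at 636 and 961 per 1000000. All 8 endothelial markers (0.0173 and 0.0390 per 1000, led by Itm2a) and all 7 mural markers (0.0150 and 0.0334, led by Vtn) were seen at lower levels. The part of these markers in the ratio was not tested. In nuclei like oligodendrocyte precursors (OPC-like), the member level was 1.15 per 1000 (1.07 to 1.22) in 103 vehicle nuclei and 1.43 per 1000 (1.34 to 1.53) in 84 OLE nuclei, with a ratio of 0.32 (0.19 to 0.46). That ratio was 0.025 when every nucleus was thinned to 1000 UMIs. Of 8 endothelial markers 6 were seen in OPC-like nuclei (Ly6c1 and Abcb1a at 0), at 0.0128 per 1000 in vehicle and 0.0297 per 1000 in OLE, led by Pecam1. GABAergic markers were lower in OLE, as given above, and mitochondrial UMIs were 1.02% and 0.878%. The part of these values in the ratio was not tested. Microglia-like nuclei, the immune cells of the brain by their markers, had 3.23 per 1000 (3.11 to 3.35) in 338 vehicle nuclei and 4.12 per 1000 (3.97 to 4.27) in 269 OLE nuclei, with a ratio of 0.35 (0.28 to 0.43).

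In astrocyte-like nuclei the direction depended on 1 nucleus. The level was 1.62 per 1000 (1.53 to 1.71) in 121 vehicle nuclei and 2.13 per 1000 (2.04 to 2.23) in 140 OLE nuclei, a ratio of 0.40 (0.30 to 0.50). A vehicle nucleus with 467 member UMIs among its 12539 UMIs lay in an unnamed cluster, where the vehicle astrocyte-like class held 1260 member UMIs. It joined the class under 3 other settings (nuclei tied at the doublet limit left out, log-normalized counts, and a finer clustering), and the ratio was then -0.061, -0.15 and -0.035, and without that nucleus 0.40, 0.29 and 0.40. The ratio of -0.061 belongs to the handling of doublets that was used first, before it was changed with these values in view. No direction is therefore given for this class. With doublets kept the ratio was 0.23, and with nuclei thinned to 1000 UMIs 0.24. Of 7 mural markers 5 were seen in it, with Kcnj8 and Myh11 at 0, and they summed to 0.0810 per 1000 in vehicle and 0.158 per 1000 in OLE, mostly Pdgfrb. All 8 endothelial markers had 0.0206 and 0.0466 per 1000, led by Itm2a. Of 8 leptomeningeal markers 7 were seen (Lum at 0), at 0.342 and 0.212 per 1000, mostly Ptgds.

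Levels varied widely among the smaller classes. In endothelial-like nuclei, which line vessels, the level was 16.0 per 1000 (15.3 to 16.7) in 16 vehicle nuclei and 21.4 per 1000 (20.7 to 22.1) in 35 OLE nuclei. Of 8 leptomeningeal markers 6 were seen in these nuclei, with Slc47a1 and Lum at 0, summing to 0.479 per 1000 in vehicle and 1.64 per 1000 in OLE, led by Ptgds. All 11 GABAergic markers were seen there too, with a higher sum in OLE (0.262 and 0.445 per 1000, led by Adarb2), and OPC markers had a lower one (0.458 and 0.295, led by Tnr, with Olig2 and C1ql1 of the 10 at 0). Mural-like nuclei had 61 member UMIs in 11 vehicle nuclei and 184 in 15 OLE nuclei, 1.64 and 3.42 per 1000. Other values differed with it in these few nuclei: mitochondrial UMIs were 0.990% in vehicle and 1.68% in OLE, the summed mural markers 7.35 and 11.3 per 1000, endothelial markers 0.134 and 0.390 (3 of 8 seen, mostly Flt1, with Cldn5 and Pecam1 among those at 0), and GABAergic markers 0.563 and 0.223 (10 of 11 seen, Nxph1 the most abundant). Leptomeningeal-like nuclei, from the membranes around the brain by their markers, had 3.83 per 1000 in 84 vehicle nuclei and 7.22 per 1000 in 83 OLE nuclei. With each nucleus given the same weight, the means of their shares were 2.87 and 4.08 per 1000, so nuclei with many UMIs and a high member share raise the summed levels, most in OLE. They form 2 clusters: in that led by Bnc2 the level was 4.95 per 1000 in vehicle and 9.46 per 1000 in OLE nuclei, with 10.4% and 8.76% mitochondrial UMIs. In the cluster led by Ranbp3l it was 1.89 and 2.66 per 1000, with 2.52% and 2.33% mitochondrial UMIs. All 11 GABAergic markers were seen in leptomeningeal-like nuclei, at 0.178 per 1000 in vehicle and 0.555 per 1000 in OLE, Adarb2 the most abundant. All 10 OPC markers were seen, at 0.200 and 0.464 per 1000, led by Pdgfra. Of 7 mural markers 5 were seen (Kcnj8 and Acta2 at 0), at 0.224 and 0.368 per 1000, led by Vtn, and of 8 endothelial markers 6 (Pecam1 and Ly6c1 at 0), at 0.408 and 0.523 per 1000, led by Abcb1a. The class's own 8 markers went the other way, from 9.89 per 1000 in vehicle to 8.36 per 1000 in OLE. The part of these markers and of mitochondrial UMIs in the member levels was not tested.

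**Figure D1:**
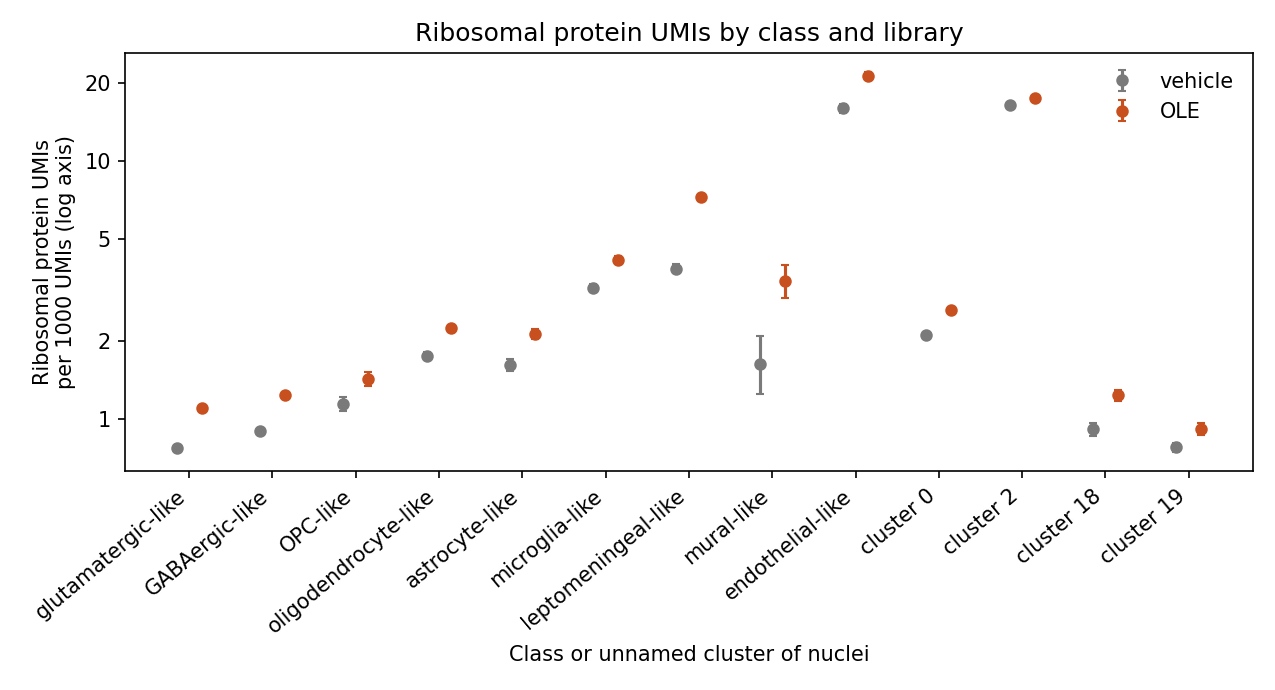
Member UMIs per 1000 UMIs (log axis) in each class or unnamed cluster, with 1 point per library and bars for the 95% Poisson interval. OLE lies above vehicle in each class shown, for astrocyte-like nuclei only without the nucleus described above, with levels from 0.774 per 1000 in vehicle glutamatergic-like nuclei to 21.4 per 1000 in OLE endothelial-like nuclei.

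Of the unnamed clusters, 2 held many of the nuclei and set much of the member total. Cluster 0, led by Spag5, Tmsb4x and Hspa8, carried raised markers of several classes (12 of 12 glutamatergic, 11 of 12 oligodendrocyte, 8 of 10 astrocyte, 8 of 11 GABAergic, 8 of 13 microglia, 3 of 8 leptomeningeal and 1 of 10 OPC). Its level was 2.11 per 1000 (2.07 to 2.15) in 2462 vehicle nuclei and 2.64 per 1000 (2.61 to 2.67) in 2037 OLE nuclei, a ratio of 0.32 (0.29 to 0.35). Median depth in it differed between libraries, at 2363 UMIs for vehicle and 4740 for OLE. Mural markers had 0.0427 per 1000 in vehicle and 0.0553 per 1000 in OLE, led by Vtn, and endothelial ones 0.0619 and 0.0761, led by Itm2a. GABAergic and astrocyte markers were also higher in OLE, and oligodendrocyte, OPC, microglia and leptomeningeal ones lower. Haemoglobin genes, described below, had 0.0559 and 0.127 per 1000. The part of depth and of these genes in the member ratio was not tested.

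Cluster 2 was led by Ttr, which encodes transthyretin, the haemoglobin gene Hbb-bs and the ferritin gene Fth1. It supplied 15.1% of the vehicle member UMIs from 1.15% of the library's UMIs, and 10.9% of the OLE member UMIs from 1.08% of the UMIs. The level was 16.4 per 1000 (16.2 to 16.7) in 369 vehicle nuclei and 17.5 per 1000 (17.2 to 17.8) in 411 OLE nuclei, and the ratio of 0.09 (0.06 to 0.13) was the lowest of the clusters. Within cluster 2 the ratio varied with depth: 0.49 under 1000 UMIs, 0.03 at 1000 to under 2000, 0.41 at 2000 to under 5000, and -0.054 at 5000 or more, where 26 vehicle nuclei held 36.1% and 24 OLE nuclei 30.8% of the cluster's UMIs. The part of depth in the ratio of the whole cluster was not tested. Mitochondrial UMIs made up 9.03% of vehicle and 8.74% of OLE UMIs in it. All 8 leptomeningeal markers were seen in cluster 2, with 1.51 per 1000 in vehicle and 2.62 per 1000 in OLE nuclei, mostly Ptgds at 1252 and 2270 per 1000000. All 10 astrocyte markers were seen, at 2.39 and 3.13 per 1000, led by Slc1a2, all 11 GABAergic ones, at 0.807 and 1.07, led by Adarb2, and 6 of 7 mural ones (Abcc9 at 0), at 0.0588 and 0.138, led by Vtn. A list of 8 haemoglobin genes, added after the data were seen, had 2.995 per 1000 UMIs there in vehicle and 0.316 per 1000 in OLE, a ratio of -3.24. The part of these genes in the member ratio was not tested.

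Barcodes with few UMIs carried higher member levels, so depth was held apart in 6 classes. In the vehicle library the level was 5.60 per 1000 under 1000 UMIs, 6.26 per 1000 from 1000 to under 2000, and 0.781 per 1000 (0.773 to 0.790) at 20000 or more. In the OLE library it was 9.61, 11.5 and 1.11 per 1000 at the same depths. The ratio was above 0 in each of the 6 depth classes, from 0.36 (0.33 to 0.40) at 5000 to under 10000 UMIs to 0.87 (0.83 to 0.92) at 1000 to under 2000. Cluster 2 made up 22.3% of the vehicle and 44.3% of the OLE barcodes of 1000 to under 2000 UMIs, and 0.230% and 0.0894% of those of 20000 or more.

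Within glutamatergic-like nuclei the ratio was 0.35 (0.25 to 0.44) at 5000 to under 10000 UMIs, 0.43 (0.40 to 0.47) at 10000 to under 20000, and 0.52 (0.50 to 0.55) at 20000 or more. The level in vehicle nuclei went from 1.25 per 1000 at 5000 to under 10000 UMIs to 0.696 per 1000 at 20000 or more. In microglia-like vehicle nuclei it was 3.42 per 1000 at 1000 to under 2000 UMIs and 3.20 per 1000 at 2000 to under 5000. In depth classes with at least 20 nuclei in each library, the interval of the ratio included 0 in 3 cases: GABAergic-like nuclei of 5000 to under 10000 UMIs (0.13, -0.04 to 0.30), astrocyte-like nuclei of 2000 to under 5000 (-0.06, -0.28 to 0.15) and cluster 2 at 1000 to under 2000 (0.03, -0.02 to 0.09). It also included 0 in cluster 2 for the nuclei of 5000 UMIs or more (-0.054, -0.13 to 0.03).

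**Figure D2:**
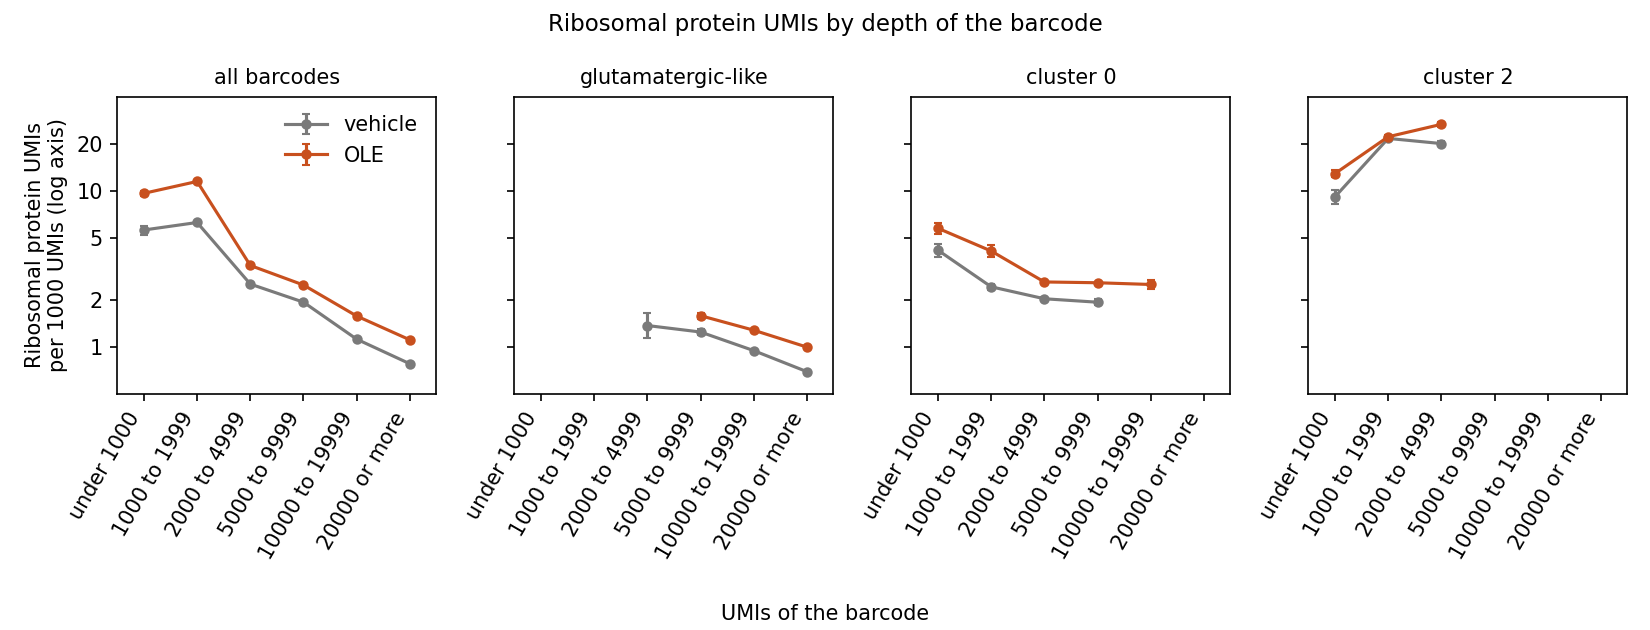
Member UMIs per 1000 UMIs (log axis) by the UMIs of a barcode, for all barcodes and for single classes, with 1 line per library and bars for the 95% Poisson interval. Over all barcodes the level is 0.781 per 1000 in vehicle and 1.11 per 1000 in OLE nuclei at 20000 UMIs or more.

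Single members were compared where both libraries together held at least 100 UMIs, with 0.25 on the log2 scale as the limit of a call. Over all barcodes 79 members passed this minimum, and 77 of them were higher in OLE and 2 lower, Rplp2 and Rps12. Of all 16142 genes with that minimum 68.3% were higher and 31.7% lower, with a median ratio of 0.08 beside 0.45 for the members. Scaling by median-of-ratios size factors makes this 75 and 4, since Rpl10 (0.06) and Rpl23a (0.07) change sign. The 4 members under the minimum were Rpl3l with 65 UMIs, Rpl39l with 7, Rpl10l with 1 and Rpl13 with 0. For Rpl13, 3 UMIs would be 0.0424 per 1000000 in the vehicle and 0.0432 per 1000000 in the OLE library, the floor used here for a count of 0. Its locus overlaps Gm20388 on the same strand, which had 25463 vehicle and 30031 OLE UMIs, so the 2 cannot be told apart in these counts.

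In glutamatergic-like nuclei 63 of 79 members were above the limit and 1 below, where 21.5% of the 14024 genes compared were above and 3.13% below. The median ratio was 0.49 over members and 0.07 over all genes. In GABAergic-like nuclei 46 of 63 members were above and 0 below, against 23.9% and 4.51% of all genes, with medians of 0.47 and 0.08. In oligodendrocyte-like nuclei it was 26 of 37 above and 0 below, against 18.1% and 10.2% of all genes, with medians of 0.39 and 0.02. Microglia-like nuclei had 14 of 22 members above and 0 below, against 14.7% and 15.7% of all genes, with medians of 0.40 and -0.019.

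In leptomeningeal-like nuclei all 35 members compared were above the limit, against 20.6% of all genes above and 23.1% below, with medians of 0.98 and -0.03. Endothelial-like nuclei had 19 of 28 above and 0 below, against 33.4% and 31.2% of all genes, with medians of 0.40 and 0.06. These 2 classes are small, and several values that differed with the members in them are given above.

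The remaining groups differed in how many members could be compared. Astrocyte-like nuclei had 2 of 4 members above and 0 below, against 18.6% and 16.7% of all genes, and no member reached 100 UMIs in OPC-like nuclei, where 15.3% of genes were above and 16.9% below. The astrocyte-like count turned to 0 above and 2 below with log-normalized counts, so it gives no direction either. The astrocyte-like members included Rpl41 (0.78), Rplp1 (0.67) and Rps24 (0.10). Cluster 0 had 46 of 73 members above and 2 below, against 13.5% and 6.66% of all genes, with medians of 0.30 and 0.02. In cluster 2, 11 of 58 members were above and 1 below, against 28.2% and 22.2% of all genes, so the members' share above was under that of all genes there.

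Members were also followed across glutamatergic-like, GABAergic-like, oligodendrocyte-like and microglia-like nuclei, chosen after their counts were seen as those of the 6 named classes with most nuclei that had most members to compare. In these 4 classes 21 members reached the minimum in each. Of these, 8 were above the limit in all 4: Rpl8, Rpl19, Rpl26, Rpl27a, Rpl32, Rpl41, Rps15 and Rpsa. Of the 3121 genes with that minimum in each class, 1.89% were above the limit in all 4. The ratio was above 0 in all 4 for 19 members and for 15.7% of those genes. Rpl5 was not among them, with -0.07 in microglia-like nuclei.

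**Figure D3:**
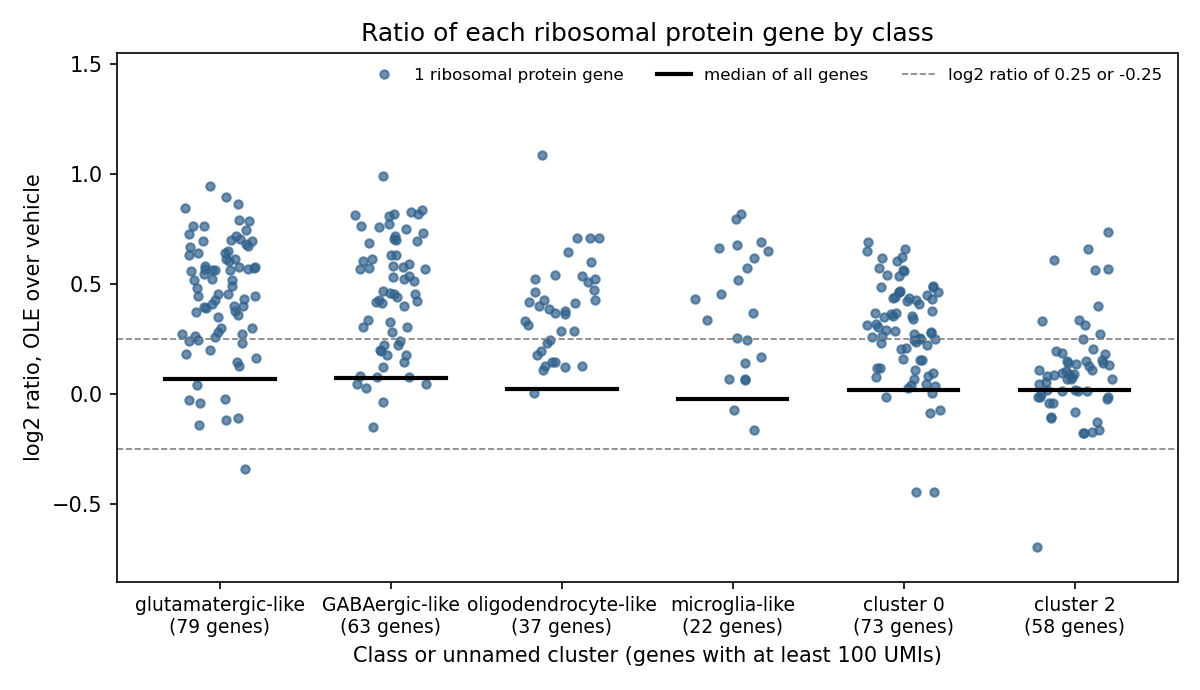
Log2 ratio of OLE over vehicle for each member with at least 100 UMIs, by class or unnamed cluster, with 1 point per gene. The median member lies at 0.49 in glutamatergic-like nuclei and at 0.09 in cluster 2.

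The 10 members with most UMIs hold 26.3% of the 210005 member UMIs. Rpl41, a very small protein at the interface of the subunits, came first with 3199 vehicle and 4234 OLE UMIs, a ratio of 0.43. Rpl6, of the large subunit, had 2644 and 3455 UMIs (0.41). All 10 were higher in OLE over all barcodes, among them Rplp1 at 0.61, Rpl19 at 0.61, Rpl14 at 0.62, Rpl27a at 0.53, Rps29 at 0.45, Rps24 at 0.44 and Rps15 at 0.37. The order was also taken per kilobase of exon over both libraries. UMIs of these 3′ libraries, with introns counted, need not grow with exon length. This scale therefore favours members with little exon and is not a corrected level. On that scale Rplp1 came first with 11300 UMIs per kb, before Rps15 with 7830 and Rps29 with 7023, and 6 of the 10 were again among the first 10.

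Rplp0, Rplp1 and Rplp2 form the stalk of the large subunit that binds the GTPases of translation, and their ratios differed in sign. In glutamatergic-like nuclei Rplp0 had 276 vehicle and 382 OLE UMIs (0.57, 0.34 to 0.80). Rplp1 had 548 and 857 UMIs there (0.75, 0.59 to 0.90). Rplp2 had 228 and 193 UMIs (-0.14, -0.42 to 0.14), and over all barcodes 484 and 407 UMIs (-0.22, -0.42 to -0.03).

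Rplp2 was below 0 in several other groups, where it had fewer UMIs: 54 and 31 in GABAergic-like nuclei (-0.70, -1.39 to -0.04), 24 and 15 in oligodendrocyte-like nuclei (-0.39), 70 and 78 in cluster 0 (-0.44) and 24 and 11 in cluster 2 (-1.01). Microglia-like nuclei had 10 and 12 UMIs of it (0.54). These values were picked out after they were seen. Rpsa, a small-subunit protein also known as the laminin receptor, had 610 and 871 UMIs in glutamatergic-like nuclei (0.62, 0.47 to 0.77).

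The ends of the order differed between classes. Among the 73 members with at least 200 UMIs in glutamatergic-like nuclei, Rps16, in the head of the small subunit, had the highest ratio, 0.94 (0.75 to 1.14), with 337 vehicle and 604 OLE UMIs. Rpl32 followed with 405 and 702 UMIs (0.90, 0.72 to 1.08), and Rpl34 with 229 and 388 UMIs (0.86, 0.62 to 1.10); both belong to the large subunit.

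The lowest of the glutamatergic-like ratios was that of Rps12, a protein of the small-subunit beak, with 140 and 103 UMIs (-0.34, -0.72 to 0.04). It is followed by Rplp2 and by Rpl10, which takes part in a late step of large-subunit maturation and had 155 and 134 UMIs (-0.11, -0.45 to 0.24). All 3 intervals include 0. Rps12 and Rpl10 have near-identical copies, described below, and their own counts are uncertain for that reason.

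In GABAergic-like nuclei 30 members had at least 200 UMIs, and Rpl18 was highest with 76 and 141 UMIs (0.99, 0.58 to 1.41). Rps19, which is mutated in some patients with Diamond-Blackfan anaemia, had 79 and 129 UMIs (0.81, 0.39 to 1.23), and Rplp1 had 111 and 177 (0.77, 0.42 to 1.13). The lowest were Rpl11, which binds Mdm2 when ribosome assembly is disturbed, with 167 and 161 UMIs (0.05, and -0.03 under median-of-ratios scaling). Rpl3, near the peptidyl transferase centre, had 138 and 136 UMIs (0.08), and Rpl10a, of the L1 stalk, 117 and 119 (0.13).

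In oligodendrocyte-like nuclei 7 members had at least 200 UMIs and all 7 were above the limit, the highest being Rpl41 with 115 and 154 UMIs (0.71, 0.35 to 1.07). Of all genes with at least 100 UMIs there, 18.1% were above, and the share at 200 UMIs is not given. Rps24 had 89 and 114 UMIs (0.65), and Rplp1 95 and 113 (0.54). At the low end were Rps15 with 110 and 116 UMIs (0.37, -0.02 to 0.76), Rpl19 with 100 and 109 (0.41), and Rps29 with 99 and 109 (0.43). No member had 200 UMIs in OPC-like, microglia-like or astrocyte-like nuclei.

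Members past the lower limit were few, and they are named here after their values were seen. In cluster 2 it was Rpl30, of the large subunit, with 72 and 41 UMIs (-0.69, -1.29 to -0.12). In cluster 0 they were Rplp2 and Rps27l, the latter with 61 and 68 UMIs (-0.44). In glutamatergic-like nuclei it was Rps12.

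Both subunits had ratios of similar size. In glutamatergic-like nuclei the large-subunit genes went from 0.472 per 1000 in vehicle to 0.663 per 1000 in OLE (0.49, 0.47 to 0.52), with 36 of 47 above the limit. The small-subunit genes went from 0.302 to 0.442 per 1000 (0.55, 0.51 to 0.58), with 27 of 32 above and 1 below. Of all genes there, 21.5% were above and 3.13% below. Over all barcodes the ratios of the subunits were 0.47 and 0.48.

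Of the 6 paralogs, 3 were well counted. Rpl7l1 had 399 vehicle and 428 OLE UMIs in glutamatergic-like nuclei, where Rpl7 had 357 and 551. Rpl22l1, which can take the place of Rpl22, had 727 and 961 UMIs over all barcodes beside 1229 and 1647 of Rpl22. Rps27l had 223 and 254 beside 104 and 120 of Rps27. The muscle paralog Rpl3l had 28 and 37 UMIs beside 1379 and 1617 of Rpl3. The testis paralogs were near 0: Rpl39l had 2 and 5 UMIs beside 684 and 947 of Rpl39, and Rpl10l had 0 and 1 beside 271 and 277 of Rpl10.

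Some members have processed copies or relatives of near-identical sequence that are counted as genes of their own, and reads of a pair may be given to either or dropped. Rpl9, of the large subunit, had 528 and 609 UMIs beside 2721 and 4082 of Rpl9-ps6. Rps27 stood beside Rps27rt with 2566 and 3294, and Rpl27, with 143 and 152, beside Rpl27-ps3 with 1025 and 1567. Rps12, with 286 and 256, stood beside Rps12-ps3 with 517 and 693. Rpl36a, with 94 and 103, stood beside Rpl36al with 343 and 579. In these 5 pairs the relative held more UMIs than the member, and the member's own value is uncertain. Rpl7a with 436 and 611 UMIs (Rpl7a-ps5: 224 and 341) and Rpl10 with 271 and 277 (Rpl10-ps3: 64 and 90) are uncertain in the same way.

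The members' proportions differed between libraries and between classes, and neither difference was larger throughout. To turn the vehicle profile of member UMIs into that of OLE, 3.95% of the UMIs over all barcodes would have to move from some members to others, and 6.02% in glutamatergic-like nuclei. Between glutamatergic-like and GABAergic-like nuclei it was 4.65%, less than between the libraries within either class (6.02% and 7.48%). Between oligodendrocyte-like and astrocyte-like nuclei it was 8.35%, and between the libraries within these classes 7.23% and 11.2%. Between glutamatergic-like and microglia-like nuclei 12.6%, and between glutamatergic-like nuclei and cluster 2 20.6%. Counting error adds to these shares, most where UMIs are few: in OPC-like nuclei, with 894 and 914 member UMIs, the libraries differed by 18.3%.

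Of the 21 members with at least 100 UMIs in each of the 4 classes, the median share of member UMIs differed 1.33-fold between the highest and the lowest class. Rplp1 differed most, with 1.84% (1.75 to 1.94) of member UMIs in glutamatergic-like and 3.37% (2.92 to 3.86) in microglia-like nuclei. Rps29, a zinc-binding protein of the small subunit, had 1.75% (1.66 to 1.84) in glutamatergic-like and 2.89% (2.47 to 3.35) in microglia-like nuclei. Rpl6 went the other way, with 3.85% (3.72 to 3.99) in glutamatergic-like and 2.38% (2.05 to 2.74) in oligodendrocyte-like nuclei.

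Rps9, of the small subunit, had 1.65% (1.56 to 1.74) in glutamatergic-like and 2.66% (2.27 to 3.11) in microglia-like nuclei. Rpl3 had 1.27% (1.03 to 1.54) in oligodendrocyte-like and 1.87% (1.66 to 2.11) in GABAergic-like nuclei. Shares also differed between depth classes: Rplp1 was 3.37% of member UMIs in barcodes under 1000 UMIs and 1.99% in those of 20000 or more, and Rpl6 was 1.89% and 3.72%. These depth classes hold different nuclei. Cluster 2 made up 28.9% of vehicle and 53.55% of OLE barcodes under 1000 UMIs, and 0.230% and 0.0894% of those of 20000 or more. The part of this mix in the shares was not tested.

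Ribosomal protein genes are short, and gene length went with the ratio of other genes too. The median member spans 3368 bp and the median protein-coding gene in the files 17345 bp, and 65 of the 83 members span under 5 kb. In glutamatergic-like nuclei 51.0% of the 1186 other genes under 5 kb were above the limit, with a median ratio of 0.26, and 13.0% of the 2510 genes of 100 kb or more, with a median of -0.01. Of the 62 members under 5 kb that could be compared there, 49 were above the limit and 1 below, with a summed ratio of 0.53 (0.51 to 0.55). The 17 longer members had 14 above and a summed ratio of 0.46 (0.42 to 0.50). Of other genes there, 28.5% of those of 5 to 20 kb and 13.6% of those of 20 to 100 kb were above, and 0 members span 100 kb or more.

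In cluster 2 63.5% of the 156 other genes under 5 kb were above the limit, and 5 of 43 members of that length. In GABAergic-like nuclei it was 61.5% of 481 other genes and 39 of 46 members. Of the longer members, 7 of 17 were above in GABAergic-like nuclei and 6 of 15 in cluster 2. Other genes above were 39.2% and 65.0% at 5 to 20 kb, and 17.1% and 33.5% at 20 to 100 kb. The part of gene length in the member ratio was not tested. Gene length was looked at after the data were seen.

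Lists of genes with related work had lower summed ratios in glutamatergic-like nuclei than the members, whose median was 0.49 where that of all genes was 0.07. Their counts above the limit stand beside 21.5% of all genes there. This order did not hold in each group: in cluster 2 the sums were 0.31 for mitochondrial ribosomal proteins, 0.20 for ribosome biogenesis and 0.13 for translation factors and other TOP genes, above the members' 0.09. RNAs that host snoRNAs were above the members in OPC-like nuclei (0.87 against 0.32), with 10 and 15 UMIs, and ribosomal proteins outside the symbol rule in astrocyte-like nuclei (0.43 against 0.40), with 68 and 114 UMIs. In oligodendrocyte-like nuclei translation factors and other TOP genes came close, with 0.34 beside the members' 0.36. Ribosomal proteins outside the symbol rule had a summed ratio of 0.42 (0.34 to 0.50), with all 4 compared above the limit and a median of 0.45; the most abundant were Rps27rt (0.36) and Rack1 (0.31), a scaffold on the small subunit. Of 20 translation factors and other genes known for TOP messages, 10 were above, with a sum of 0.19 and a median of 0.23; the most abundant were the histone chaperone Nap1l1 (0.04, and -0.03 under median-of-ratios scaling) and the helicase Eif4a2 (0.21). Ribosome biogenesis genes had 11 of 27 above and 1 below, with a sum of 0.15 and a median of 0.16, led by the snoRNP protein Nop56 (-0.01) and the nucleolar protein Ncl (0.25).

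RNAs that host snoRNAs had 0 of 3 above, a sum of 0.14 and a median of 0.15, with Snhg12 at 0.15 and Epb41l4aos at 0.00 (-0.069 under median-of-ratios scaling). Genes that control TOP messages and mTORC1 had 1 of 13 above, a median of 0.01 and a sum of 0.04, which turned to -0.03 under median-of-ratios scaling; Rptor, a subunit of mTORC1, was at 0.01 (-0.055 under that scaling) and Tsc1, its inhibitor, at -0.01. Of 75 mitochondrial ribosomal proteins, which serve the other ribosome of the cell, 17 were above, near the share of all genes, with a sum of 0.09 and a median of 0.12; the most abundant were Mrpl3 (-0.01) and Mrps9 (-0.07). RNAs kept in the nucleus had 1 of 7 above, a median of 0.01 and a sum of 0.14, from Malat1 at 0.22 and Meg3 at -0.01. The 13 mitochondrially encoded genes had 0 above, a median of -0.02 and a sum of -0.04, with mt-Atp6 at -0.03 and mt-Co3 at -0.06.

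Members lie on 19 chromosomes and share features of gene structure that the symbol rule did not use. Of the 83, 30 hold a snoRNA inside the gene (36.1%), 58 snoRNAs in all, where 1.17% of 21974 protein-coding genes in the files do. In glutamatergic-like nuclei the members with a snoRNA had 23 of 29 above the limit and 1 below, with a summed ratio of 0.50 (0.47 to 0.53). Those without had 40 of 50 above and a ratio of 0.52 (0.49 to 0.55). Genes on the opposite strand overlap 20 members, whose summed ratio was 0.42 (0.37 to 0.46), with 13 of 20 above. Of all genes in these nuclei, 21.5% were above and 3.13% below.

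The TOP motif was looked for at the annotated starts that RefSeq gives on GRCm38.p6, which matched 63 of the 83 members. The motif was a C at the start followed by at least 4 bases that are each C or T, read on the strand of the gene and at the start only. It was found for 13 of the 63 members (20.6%), 2 of 13 translation factors and other TOP genes (15.4%), 0 of 69 mitochondrial ribosomal proteins, and 813 of all 27025 genes (3.0%). An annotated start can lie some bases from the one used in a cell, so a start without a match says only that these letters are not there. In glutamatergic-like nuclei members with a match had 8 of 13 above the limit and a summed ratio of 0.44 (0.38 to 0.50), and those with a start but no match 38 of 46 above and 0.47 (0.45 to 0.50). Of all genes in these nuclei, with or without a start, 21.5% were above.

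The starts below show what such a motif looks like in 4 members with long runs, in Rplp2, a match whose ratio was below 0, and in Rpl27a and Rps16, which have no match, Rpl27a because its run begins with T. Each has 10 bases before and 20 from the annotated start, 5′ to 3′ on the strand of the gene, and capitals mark the unbroken run of C and T from the start. Rpl15 lies at chr14:18270967-18270996 (minus strand), Rpl35 at chr2:39005112-39005141 (minus), Rps6, the target of the S6 kinases, at chr4:86857348-86857377 (minus) and Rpl28 at chr7:4792955-4792984 (plus). Rplp2 lies at chr7:141447641-141447670, Rpl27a at chr7:109519185-109519214 and Rps16 at chr7:28350679-28350708, all on the plus strand.
Rpl15: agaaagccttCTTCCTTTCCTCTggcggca
Rpl35: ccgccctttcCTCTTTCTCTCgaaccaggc
Rps6: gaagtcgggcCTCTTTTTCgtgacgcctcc
Rpl28: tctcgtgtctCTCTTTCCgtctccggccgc
Rplp2: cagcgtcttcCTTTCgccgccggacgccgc
Rpl27a: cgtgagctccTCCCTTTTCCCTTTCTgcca
Rps16: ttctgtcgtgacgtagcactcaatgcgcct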

How the data were processed

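The data are single-nucleus RNA sequencing of 2 libraries (10x 3′ v3), for which the authors deposited the whole-number UMI count of each gene and nucleus, unnormalized. The counts come from Cell Ranger on the mm10 pre-mRNA reference, so that introns count. The labels and the study give its version as 3.0.1, while the headers of the counts give another. The files hold as many barcodes as the study gives for sequenced nuclei, and while its methods name a doublet removal step with Seurat, whether the deposited counts come before or after it is not known. Scrublet (scanpy 1.11.5, expected rate 5%) called 0.119% of vehicle and 0.113% of OLE nuclei. As both are under the set minimum of 0.5%, the top 5% of scores were left out, 331 vehicle and 278 OLE nuclei. At first nuclei tied at the limit were left out too, which removed more than 5%; this was changed after clusters and member levels had been seen. RNA from other nuclei or from free RNA was not removed.

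SCTransform (in R 4.3.3 with Matrix 1.6.5, sctransform 0.4.2 and Seurat 5.3.0) served as normalization, and Louvain clustering used 3000 variable genes, less 52 that are members or related, with 30 components, 20 neighbours and resolution 0.4, without integration. A marker counted as raised at 4 times the 10th percentile of clusters and in 10% of nuclei. A pseudocount of 20 per 1000000 UMIs served only to rank the leading genes of a cluster. A name needed 3 raised markers of the class. It was withheld where 50% of another class's markers were raised and no own marker was among the 10 leading genes. The same held where another class had more markers among those 10. This scoring comes from earlier work on these data, and 2 versions were tried here. Further limits on markers of the class and of other classes were added after the clusters and their member levels had been seen. These limits changed the name of 0 of 27 clusters. With doublets kept they did change names: without them the GABAergic-like class grew from 767 to 1048 nuclei and the glutamatergic-like from 3586 to 3639. Sums per library and class were compared as shares of all UMIs, with no test.

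The members and lists were chosen with earlier results of these data known. Genes are named by rule: the 10 members with most UMIs, Rplp0, Rplp1, Rplp2, Rpsa, paralogs with their parents, members with 0 UMIs, the 3 highest and 3 lowest ratios per class among members with at least 200 UMIs, the 5 whose share differs most between classes, and the 2 most abundant genes of each list. As no member reached 100 UMIs in all of the 6 named classes with most nuclei, shares were compared over 4 classes. Of the listed genes, 5 of 6 ribosomal proteins outside the rule and 3 of 9 snoRNA hosts are in the files, and Rps4l was not analysed here. Gene positions are those of GENCODE vM21 on GRCm38, matched for 31011 identifiers (99.9%). The work was done in Python 3.11.15 with pandas 2.3.3, scipy 1.17.1, numpy 2.4.6 and matplotlib 3.10.9, and tested on simulated data. In all, 13 alternatives were planned and 4 added after the data were seen. The own values of 1 member that fits these rules are not reported here; it is counted in all sums and numbers of members.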

Additional observations from a re-analysis of the deposited data

How the results depend on the processing

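No paired analysis was possible because each condition is 1 pooled library. With 1 library each, no alternative can show the spread between mice. The summed ratio stayed above 0 in 15 of 15 alternatives in glutamatergic-like (0.44 to 0.52), GABAergic-like (0.24 to 0.49), oligodendrocyte-like (0.32 to 0.44), OPC-like (0.02 to 0.38) and microglia-like nuclei (0.32 to 0.37), and in 11 of 15 in astrocyte-like nuclei (-0.15 to 0.41). Of 90 ratios 4 reversed, all astrocyte-like, and 14 moved beyond their interval; of 96 levels 22 moved, and of 132 counts of members 21 changed by over 1.5 times. The cause was not tested, except that fewer or more genes pass another UMI minimum and that 1 nucleus accounts for the astrocyte-like reversals.

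The astrocyte-like ratio was -0.061 with nuclei tied at the doublet limit left out too (also with clusters named without the added limits), -0.15 with log-normalized counts and -0.035 at resolution 0.8. Without the vehicle nucleus of 467 member UMIs that then enters the class these are 0.40, 0.29 and 0.40. The alternatives with ties, with the naming limits taken off and without the nucleus richest in members were chosen after seeing the data.

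With doublets kept, the astrocyte-like ratio was 0.23 (also with clusters named without the added limits) and levels per 1000 were 0.798 in vehicle and 1.13 in OLE glutamatergic-like, 1.88 in OLE astrocyte-like and 3.10 in vehicle microglia-like nuclei. With them kept, 1 of 65 members was below the limit in GABAergic-like and 1 of 44 in oligodendrocyte-like nuclei. The share of all genes below is not given for this setting. With doublets left out it was 4.51% and 10.2% in these classes. In astrocyte-like nuclei 8 of 13 were above, against 22.5% of all genes. With members among the variable genes, ratios were 0.44 in oligodendrocyte-like and 0.28 in astrocyte-like nuclei, and levels 1.66 per 1000 in vehicle oligodendrocyte-like and 1.97 in OLE astrocyte-like nuclei. Of 3 astrocyte-like members 1 was then above the limit, against 18.5% of all genes. With log-normalized counts the glutamatergic-like ratio was 0.48, and levels were 0.788 per 1000 in vehicle glutamatergic-like, 2.21 in vehicle and 1.99 in OLE astrocyte-like and 3.36 in vehicle microglia-like nuclei. Of 4 astrocyte-like members 0 were then above and 2 below, with 16.1% of all genes above. The share of all genes below is not given for log-normalized counts, and was 16.7% with SCTransform. The vehicle astrocyte-like level was 2.19 per 1000 at resolution 0.8. With ties left out it was 2.13 in vehicle and 2.04 in OLE nuclei, with 1 of 3 members above the limit, against 16.0% of all genes. Without nuclei of 5% or more mitochondrial UMIs, the vehicle oligodendrocyte-like level was 1.67 per 1000. Of 3 astrocyte-like members 1 was above, against 18.8% of all genes.

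Scaling by median-of-ratios size factors gave a ratio of 0.44 for glutamatergic-like and one of 0.38 for GABAergic-like nuclei. The mean of each nucleus' own share gave ratios of 0.48 in glutamatergic-like, 0.39 in GABAergic-like and 0.28 in astrocyte-like nuclei, and levels per 1000, vehicle then OLE, of 0.865 and 1.21 in glutamatergic-like, 1.01 and 1.33 in GABAergic-like and 1.88 and 2.38 in oligodendrocyte-like nuclei, with 1.24 in vehicle OPC-like and 1.75 in vehicle astrocyte-like nuclei. Nuclei thinned to 1000 UMIs gave ratios of 0.47 in glutamatergic-like, 0.24 in GABAergic-like, 0.025 in OPC-like and 0.24 in astrocyte-like nuclei; 1 vehicle oligodendrocyte-like, 2 vehicle and 1 OLE microglia-like nuclei were too shallow and left out.

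With a minimum of 20 UMIs, members above the limit were 26 of 46 in OPC-like, 36 of 57 in astrocyte-like and 37 of 70 in microglia-like nuclei. Of all genes with that minimum 28.4%, 31.1% and 28.1% were above there. Members below were 3 of 78 in GABAergic-like, 4 of 57 in astrocyte-like and 4 of 70 in microglia-like nuclei. They were 4 of 70 in oligodendrocyte-like and 8 of 46 in OPC-like nuclei. The share of all genes below is not given for this minimum. With 500 UMIs, 0 members could be compared in OPC-like, astrocyte-like, microglia-like and oligodendrocyte-like nuclei, so counts of 0 above say nothing there. In GABAergic-like nuclei only 1 member could be compared, and it was above, against 11.7% of all genes. In glutamatergic-like nuclei 0 of 64 were below. The share of all genes below is not given for 500 UMIs either, and was 3.13% with at least 100 UMIs.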

Other observations

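The haemoglobin list, added after the data were seen, differed in opposite directions between groups of nuclei. Beside cluster 2, it had 0.409 per 1000 UMIs in vehicle and 0.0677 per 1000 in OLE microglia-like nuclei. In cluster 0 it had 0.0559 per 1000 in vehicle and 0.127 per 1000 in OLE nuclei. With fewer UMIs, it was also higher in OLE in astrocyte-like (0.018 and 0.059 per 1000), GABAergic-like (0.0056 and 0.0102) and oligodendrocyte-like nuclei (0.024 and 0.037). Haemoglobin genes are those of red blood cells, and the difference between these groups was not tested.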
